A study of Mus musculus with 4 samples.

Results

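The genes described here are 32 genes of the unfolded protein response and the integrated stress response, taken by name from a list. They fall into 18 genes of protein folding and degradation in the endoplasmic reticulum (ER), 4 stress sensors and transcription factors, and 10 genes of the branch run by the transcription factors ATF4 and CHOP. All 32 were on the array, with 70 probe sets annotated to 1 gene each, out of 22626 probe sets and 12393 genes in all. No filter on low values was used, so every member was tested.

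Affymetrix arrays, 4 in all, measured RNA of the 3T3-F442A line, mouse preadipocytes that become fat cells in the dish. The arrays form 2 groups of 2. In the group shGFP, the control, the cells stably expressed a short hairpin RNA against the foreign gene GFP, and in the group shTRPV4 a hairpin against Trpv4, which encodes a calcium-permeable cation channel. Cells of both groups had been infected with a retrovirus as preadipocytes, kept 2 days under puromycin selection (2 ug/ml), and differentiated over 8 days in 850 nM insulin. During the first 2 of those days they also received rosiglitazone, which activates the fat cell regulator PPAR gamma. The labels name no clone and no hairpin sequence, and do not say whether replicates were separate infections, cultures or hybridisations, so the p-values rest on a spread among arrays that may be no more than technical. The comparison asks which transcripts differ between fat cells carrying the 2 hairpins.

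When unfolded proteins build up in the ER, the membrane proteins IRE1 (gene Ern1), PERK (Eif2ak3) and ATF6 signal to the nucleus. IRE1 splices the mRNA of Xbp1, ATF6 is cut to release a transcription factor, and both routes raise chaperones and the machinery of ER-associated degradation, which pulls misfolded proteins out of the ER for destruction. PERK phosphorylates the translation factor eIF2 alpha, as do kinases that sense amino acid shortage, viral RNA or heme shortage. This slows protein synthesis in general but favours translation of ATF4, which turns on genes of amino acid supply and the factor CHOP (Ddit3). Fat cells secrete large amounts of adipokines through the ER. Messenger levels, as measured here, do not report splicing of Xbp1, cleavage of ATF6 or phosphorylation of PERK and eIF2 alpha.

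Values below are deposited intensities of single arrays, or mean ± SD (n = 2). Differences are shTRPV4 minus shGFP in quantile-normalized log2(intensity + 16), with adjusted p-values from limma over all probe sets and a threshold of 0.05. A gene is represented by its brightest probe set. The single Trpv4 probe set read 43.7 and 93.8 in shGFP and 80.1 and 79.5 in shTRPV4 (0.32, 95% interval −0.55 to 1.19, limma adjusted p = 0.55), so the knockdown could not be checked and groups are named by their labels. Fat cell transcripts such as Adipoq (11785 and 11816 in shGFP, 13294 and 14169 in shTRPV4) were bright on all 4 arrays. Marker genes moved with the groups. The preadipocyte and fibroblast list (11 genes) had 7 calls lower and 0 higher, and its summed intensity was 59710 to 62481 in shGFP and 45319 to 46436 in shTRPV4. Of 10 adipocyte markers 4 rose and 0 fell (sum 56153 to 56752 and 64951 to 67912). All these sums are of deposited intensities. After normalization the bright Fabp4 and Lpl differed by 0.00 and −0.05 and Retn by 1.90, with 7 of the 10 adipocyte markers positive. Of 7 proliferation markers 4 fell and 0 rose (sum 5628 to 6046 and 4511 to 4554). Of 8 macrophage markers 3 fell and 1 rose (sum 961 to 1055 and 616 to 671), with the pan-leukocyte gene Ptprc at 5.4 to 11.2 on all arrays. No marker was at 0. The part of these marker shifts in the results below was not tested, and in bulk RNA a smaller share of cells of a type and less RNA per cell cannot be told apart.

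Among the 32 members 5 rose, 1 fell and 26 did not pass. The 5 were Edem1, Ddit3, Chac1, Herpud1 and Eif2ak3, and the gene that fell was Atf6. Over all genes 5.33% were called higher and 6.00% lower, against 15.6% and 3.12% of the members. Members are mostly well expressed: 31 of 32 were brighter than the median probe set, as were 6817 of 12393 genes. When probe sets under that median were left out before the fit, genes represented by them dropped out and 31 members stayed. Of these members 48.4% passed in either direction, as did 45.2% of the genes kept. By direction, 41.9% of these members were then called higher and 6.45% lower, against 25.1% and 20.1% of the genes kept. The median difference was 0.15 over the members and 0.02 over all genes. Both shTRPV4 arrays read above both shGFP arrays for 19 members and below them for 5, against 27.8% and 30.4% of all genes. That count uses the deposited intensities, whose scale differed between arrays: the brightest probe set read 18099 to 18222 in shGFP and 19142 to 19625 in shTRPV4. With the values as deposited 3 members rose and with median centring 11 did, with 1 lower in each. An offset of 1 in place of 16 left limma with 0 members called and 13 at an unadjusted p under 0.05. Over all genes 3.12% were then called, and 3747 of 12393 had an unadjusted p under 0.05. The split of calls over all genes, 661 higher and 744 lower, was 380 and 718 as deposited and 1036 and 708 with median centring. The calls did not hold when any single array was left out, in fits that leave 1 array in a group. In those fits the median difference of the members was 0.13 to 0.19, and that of all genes was 0.02.

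**Figure D1:**
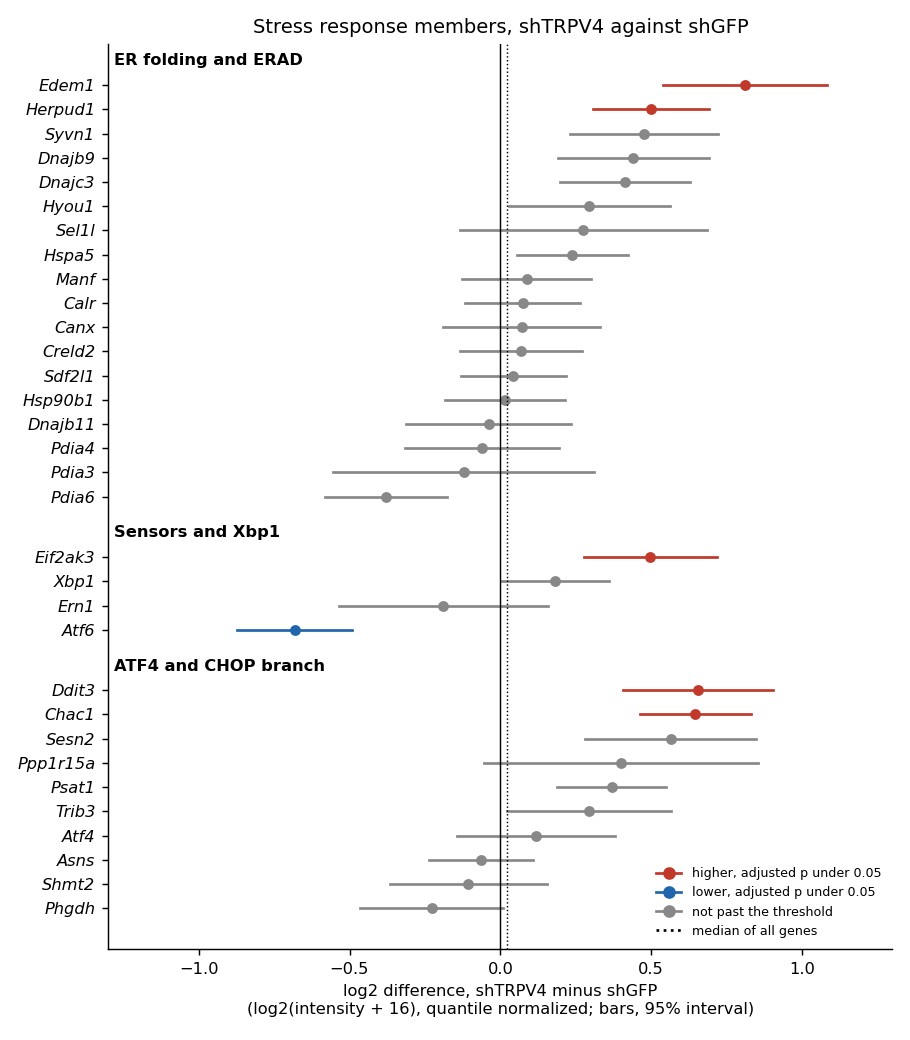
Difference of each member between the shTRPV4 and shGFP arrays (x axis, log2(intensity + 16) after quantile normalization), as points with 95% intervals from limma, 2 arrays per group, in 3 groups of genes. Edem1 (0.81), Herpud1 (0.50), Eif2ak3 (0.50), Ddit3 (0.66) and Chac1 (0.65) were called higher and Atf6 (−0.68) lower, and the grey members did not pass.

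Several ER members share a promoter feature. The ER stress response element (ERSE), to which ATF6 and XBP1 are known to bind together with the CCAAT factor NF-Y, was searched as CCAAT and CCACG with any 9 bases between them, on both strands, in the 300 bases around each gene start (250 before and 50 after, RefSeq, GRCm38.p6). Of the 29 members with a promoter entry, 8 held it (27.6%), against 37 of 27025 genes (0.137%). The members were listed as genes of this response and the element is known from its factors, so this share is no independent finding. Atf6, Manf and Hyou1 had no entry. The 8 are all ER folding or degradation genes. Their sites are shown to let the shared spacing be seen, each with 5 flanking bases on either side, 5′ to 3′ along the gene's strand. Capitals mark the fixed letters of the element, which read CCAAT then CCACG, or CGTGG then ATTGG where the element lies on the opposite strand.
Hspa5, chr2:34772020-34772048, plus strand: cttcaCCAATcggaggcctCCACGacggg
Hsp90b1, chr10:86705633-86705661, minus strand: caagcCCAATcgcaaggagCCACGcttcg
Hsp90b1, chr10:86705528-86705556, minus strand: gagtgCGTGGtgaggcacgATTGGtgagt
Dnajc3, chr14:118937822-118937850, plus strand: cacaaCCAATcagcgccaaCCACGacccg
Pdia6, chr12:17266486-17266514, plus strand: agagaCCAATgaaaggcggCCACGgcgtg
Calr, chr8:84847070-84847098, minus strand: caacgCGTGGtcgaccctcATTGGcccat
Canx, chr11:50325795-50325823, minus strand: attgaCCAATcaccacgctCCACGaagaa
Creld2, chr15:88819515-88819543, plus strand: cttctCGTGGcgagcctcaATTGGtccac
Syvn1, chr19:6046527-6046555, plus strand: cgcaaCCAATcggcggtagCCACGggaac

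The elements began 44 to 212 bases before the gene start, nearest in Syvn1 and farthest in Hsp90b1, which held 2. None of the 8 genes with an ERSE passed the threshold in either direction (limma, 0 of 8), beside 5.45% higher and 5.93% lower among the 9887 measured genes with a promoter entry. At an unadjusted p under 0.05 in limma stood Hspa5, Dnajc3, Syvn1 and Pdia6, as did 4102 of all 12393 genes. These 4 passed with an offset of 64, with an intensity trend and with probe sets under the median left out. In those settings 20.8% and 21.3% of all genes passed, and 45.2% of the genes kept by that filter. The differences of the 8 ran from −0.38 for Pdia6 to 0.48 for Syvn1, with a median of 0.07, beside 0.02 over those 9887 genes. Of the 8, 7 were positive and Pdia6 was negative, and 5302 of the 9887 were positive. The match is a description of the sequence and does not show that a factor was bound.

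The large chaperones of the ER lumen did not pass, with positive differences of 0.02 to 0.30. Hspa5 encodes BiP, the Hsp70 chaperone that also holds the stress sensors inactive. It read 8019 and 8535 in shGFP and 10090 and 10298 in shTRPV4, so the groups did not overlap (0.24, 95% interval 0.06 to 0.42, adjusted p = 0.10). Its second probe set differed by 0.25. Hsp90b1, the ER Hsp90 known as GRP94, read 8893 and 8599 in shGFP and 9160 and 9124 in shTRPV4 (0.02, −0.18 to 0.22). Hyou1, a nucleotide exchange factor for BiP, read 780 and 730 against 927 and 898 (0.30, adjusted p = 0.14), and its dimmest probe set had the opposite sign (−0.10). Without shGFP replicate 2 the Hsp90b1 difference was −0.03, with the sign turned.

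The J-domain co-chaperones of BiP differed among themselves. Dnajb9 (ERdj4), a co-chaperone known to bind IRE1, read 3847 and 3581 in shGFP and 5233 and 5001 in shTRPV4 (0.44, SE 0.09, adjusted p = 0.065). Dnajc3 (p58IPK) read 1373 and 1390 against 1845 and 1753 (0.41, SE 0.08, adjusted p = 0.056). Both were just short of the threshold, with no overlap between groups. Of the 4 further Dnajc3 probe sets, 3 differed by 0.34 to 0.44 and the dimmest by 0.00. Dnajb11 (ERdj3), which binds unfolded substrates, read 1416 and 1456 in shGFP and 1255 and 1498 in shTRPV4 (−0.04), and its partner Sdf2l1 read 568 and 610 against 576 and 602 (0.04). The groups overlapped for these 2 genes.

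The 3 protein disulfide isomerases among the members, which form and rearrange disulfide bonds, had negative differences and none passed. Pdia6 read 3001 and 3232 in shGFP and 2276 and 2491 in shTRPV4, the lowest of the 18 ER genes (−0.38, SE 0.07, adjusted p = 0.059), and a dim probe set of 33.4 ± 0.389 and 41.8 ± 0.424 had the opposite sign (0.27). Pdia4 read 4677 and 4269 against 4201 and 4335 (−0.06). Pdia3, the isomerase that works with the lectin chaperones, read 2593 and 2698 against 2043 and 2797 (−0.12, −0.55 to 0.31), a wide interval because the shTRPV4 arrays lay far apart. The groups overlapped for Pdia3 and Pdia4. Without shTRPV4 replicate 1 the Pdia3 difference was 0.07, and without shGFP replicate 1 that of Pdia4 was 0.03, each with the sign turned.

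The lectin chaperones, which hold glycoproteins during folding, did not pass on their brightest probe sets. Calr, encoding calreticulin, read 8882 and 8848 in shGFP and 9787 and 9658 in shTRPV4, a gap that shrank to 0.07 after normalization (−0.12 to 0.26). Canx, encoding calnexin, read 6306 and 5820 against 6761 and 6493 (0.07). Without shGFP replicate 2 the Canx difference was −0.02. Another Canx probe set read 620 and 657 in shGFP and 864 and 855 in shTRPV4 and passed (0.46, SE 0.07, adjusted p = 0.038), while the third differed by 0.02. Canx was thus called on 1 of its 3 probe sets. The small ER proteins did not pass either. Manf, a secreted survival factor, read 2925 and 3227 in shGFP and 3171 and 3381 in shTRPV4 and overlapped (0.09), and Creld2 read 1121 and 1083 against 1130.0 and 1147 (0.07).

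All 4 members of ER-associated degradation had positive differences, and 2 of them rose. Over all genes 53.5% were positive and 5.33% were called higher. Edem1 encodes a lectin-like protein that directs misfolded glycoproteins to degradation. It read 1097 and 1317 in shGFP and 2006 and 2151 in shTRPV4, a 1.76-fold rise (0.81, SE 0.10, adjusted p = 0.029). Its second probe set also rose (0.70, SE 0.09, adjusted p = 0.035). Edem1 had the largest difference of all 32 members. Herpud1, a membrane protein of the degradation complex that is itself strongly stress-inducible, read 1252 and 1355 in shGFP and 1733 and 1872 in shTRPV4, a 1.41-fold rise (0.50, SE 0.07, adjusted p = 0.036). The second Herpud1 probe set did not pass (0.40, adjusted p = 0.091), and the call was lost with the values as deposited.

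Syvn1, the ubiquitin ligase HRD1 at the centre of this complex, read 874 and 961 in shGFP and 1169 and 1353 in shTRPV4 (0.48, SE 0.09, adjusted p = 0.055). Sel1l, the adaptor that stabilises HRD1, read 1000.1 and 1249 against 1200 and 1481, where the groups overlapped (0.27, −0.13 to 0.68, adjusted p = 0.30). The other 3 Sel1l probe sets differed by 0.33 to 0.48 without passing. Over the 4 degradation genes the median was 0.49, over the 3 disulfide isomerases −0.12 and over all 18 ER members 0.08. These smaller groups were formed by role after the values were known, and their contrast has no test.

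**Figure D2:**
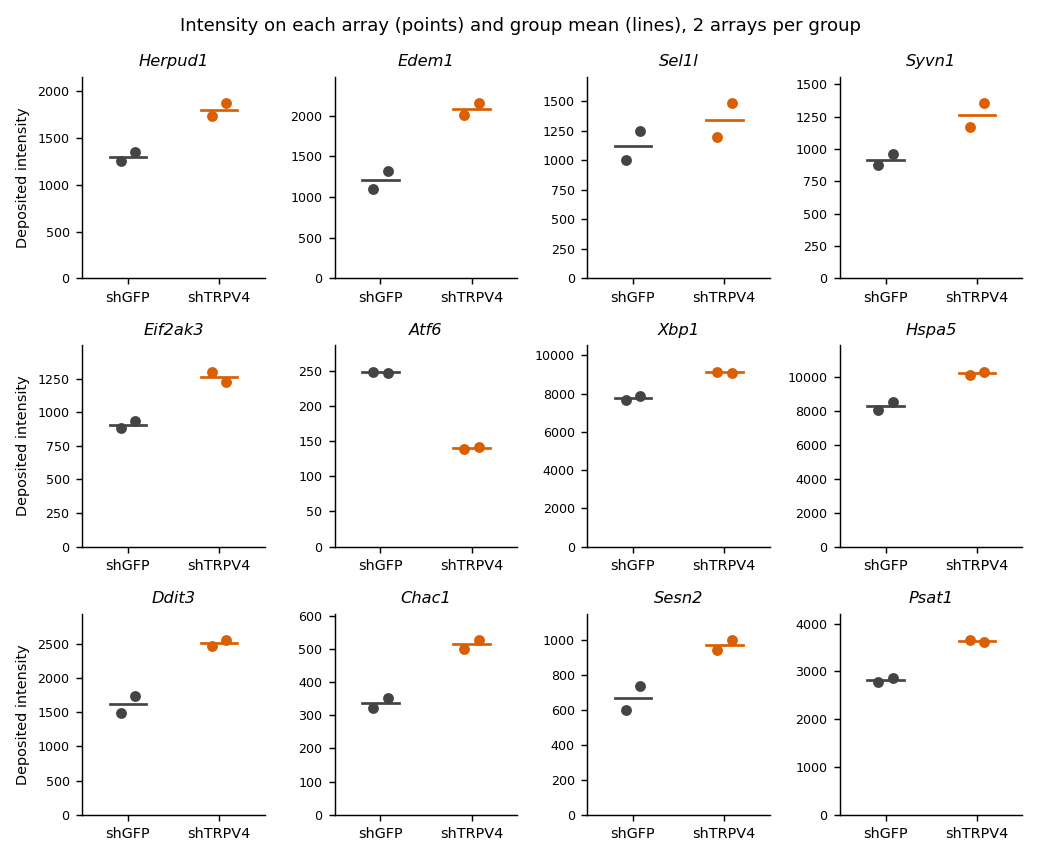
Deposited intensity (y axis, linear, from 0) on each array (points) with the mean of 2 arrays (lines) for 12 members. Edem1, Herpud1, Eif2ak3, Ddit3 and Chac1 were higher in both shTRPV4 arrays and Atf6 lower, while Sel1l overlapped between the groups.

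Other elements were searched in the same way, and the Herpud1 promoter held matches. A compact form of the ERSE, ERSE-II (ATTGG and CCACG with 1 base between), was found in 12 of 27025 genes (0.0444%) and in 2 members, Herpud1 and Dnajb11. The differences of these members were 0.50 and −0.04. As with the ERSE, such matches in genes listed for this response are no independent finding. Herpud1 further held the element CARE, bound by ATF4 with C/EBP partners and searched as TGATGNAA on both strands, which 1219 genes (4.51%) and 4 of 29 members (13.8%) held. It was the member with a match to both. The 250 bases before its start, chr8:94386179-94386428, plus strand, are printed because they place both matches, with the CARE, on the opposite strand, beginning 112 bases and the ERSE-II 52 bases before the start, both with their fixed letters in capitals.
Herpud1: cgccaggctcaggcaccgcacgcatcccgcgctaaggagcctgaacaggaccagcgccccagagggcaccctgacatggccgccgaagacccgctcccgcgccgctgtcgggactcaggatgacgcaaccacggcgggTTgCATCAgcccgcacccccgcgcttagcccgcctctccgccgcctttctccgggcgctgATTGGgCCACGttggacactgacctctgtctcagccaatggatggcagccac

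The 3 ER stress sensors did not move together. Atf6 was the single member that fell. Its single probe set read 249 and 247 in shGFP and 139 and 142 in shTRPV4, with replicates close and the groups far apart (−0.68, SE 0.07, 1.60-fold, adjusted p = 0.023). Eif2ak3, encoding PERK, read 885 and 932 in shGFP and 1303 and 1224 in shTRPV4 and rose 1.41-fold (0.50, SE 0.08, adjusted p = 0.044). That call was lost with the values as deposited. Its 2 other probe sets were near the offset of 16, at 7.53 to 22.5 in group means, and had negative differences (−0.24 and −0.69) that did not pass. Averaging its 3 probe sets turned the sign (−0.14).

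Ern1, encoding IRE1 alpha, was at the bottom of the scale, with 15.7 and 20.0 in shGFP and 11.1 and 15.8 in shTRPV4 (−0.19, −0.54 to 0.16), and its other 2 probe sets were dimmer. A difference in Ern1 would have been hard to see at this level. Xbp1, the target of IRE1, was bright, with 7680 and 7857 in shGFP and 9149 and 9060 in shTRPV4 (0.18, 0.00 to 0.36, adjusted p = 0.16). Its other 3 probe sets differed by 0.07 to 0.20 and none passed. The groups did not overlap on the brightest Xbp1 probe set.

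In the ATF4 and CHOP branch, the transcription factors, feedback genes and Chac1 had positive differences, and of the 4 amino acid and folate enzymes 3 had negative ones. Of the 10 genes 2 rose and 0 fell, beside 5.33% and 6.00% of all genes, with a median of 0.33. The split by role within the branch was made after the values were known, and its contrast has no test. Atf4 itself, whose protein is controlled mainly through translation, read 3129 and 3603 in shGFP and 3746 and 3574 in shTRPV4, overlapping (0.12, −0.15 to 0.38, adjusted p = 0.47). Ddit3, encoding CHOP, read 1490 and 1742 in shGFP and 2467 and 2556 in shTRPV4 and rose 1.58-fold (0.66, SE 0.09, adjusted p = 0.035). CHOP is a C/EBP family member known for its part in cell death under prolonged stress and for blocking fat cell differentiation.

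Chac1, which degrades glutathione and is a target of ATF4 and CHOP, rose 1.57-fold, from 320 and 351 to 500.4 and 527 (0.65, SE 0.07, adjusted p = 0.024). Sesn2, a leucine sensor that restrains mTORC1, read 602 and 738 in shGFP and 946 and 1002 in shTRPV4 (0.56, SE 0.10, adjusted p = 0.053). It was just short of the threshold on this probe set, and its second one passed (0.48, SE 0.06, adjusted p = 0.033). Trib3, a pseudokinase that feeds back on ATF4 and CHOP, read 1270 and 1505 against 1669 and 1647 (0.29, adjusted p = 0.14), with 0.39 on its other probe set. Ppp1r15a, or GADD34, which directs a phosphatase to eIF2 alpha and so restores translation, read 270 and 382 against 413 and 412 (0.40, −0.05 to 0.86, adjusted p = 0.20), where shGFP replicate 2 lay close to the shTRPV4 arrays. These 6 genes, 2 of which passed, had positive differences with a median of 0.48. Of all genes 53.5% were positive.

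None of the 4 amino acid and folate enzymes passed on its representative probe set. Asns, which makes asparagine and is a classical ATF4 target, read 3951 and 4071 in shGFP and 3805 and 3913 in shTRPV4 (−0.07, −0.24 to 0.11, adjusted p = 0.54). Its 2 probe sets had the same sign, which median centring turned (0.04). Phgdh, the entry enzyme of serine synthesis, read 1951 and 1838 against 1585 and 1565 (−0.23, adjusted p = 0.17), and its 4 probe sets ran from −0.38 to −0.17. Shmt2, which makes glycine in mitochondria, read 508 and 567 against 504 and 459 (−0.11), with −0.19 to −0.17 on its other 3 probe sets. Psat1, the next enzyme of serine synthesis after Phgdh, had the opposite sign. It read 2769 and 2856 in shGFP and 3661 and 3615 in shTRPV4 (0.37, SE 0.06, adjusted p = 0.0505), and its second probe set passed by a like margin (0.39, adjusted p = 0.0485).

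The CARE element was in the promoters of Chac1, Herpud1, Trib3 and Asns. Chac1 and Asns are shown because both are known ATF4 targets, hold a match and differed in their values, 0.65 against −0.07. The Chac1 stretch covers the 250 bases before its start, chr2:119350992-119351241, plus strand, with the match on the opposite strand 193 bases before it. The Asns stretch is chr6:7693220-7693237, minus strand, with the match beginning 23 bases before the start. Capitals again mark the fixed letters of the motif.
Chac1: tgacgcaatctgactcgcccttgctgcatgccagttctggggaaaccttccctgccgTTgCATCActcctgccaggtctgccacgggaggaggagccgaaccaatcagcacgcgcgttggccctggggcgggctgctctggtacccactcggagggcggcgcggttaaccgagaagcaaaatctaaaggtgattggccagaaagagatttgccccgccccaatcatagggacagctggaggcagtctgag
Asns: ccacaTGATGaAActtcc

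Of the 4 members with a CARE match 2 rose, Chac1 and Herpud1. Over the 309 measured genes with a match 17 were called higher (5.50%) and 20 lower (6.47%), near the 5.45% and 5.93% of the 9887 measured genes with a promoter entry. The UPR element TGACGTGG was in 193 genes (0.714%) and in 0 of the 29 members in this window. ERSE, ERSE-II and the UPR element share the letters CCACG, or CGTGG on the opposite strand, so 1 stretch can match more than 1 of them.

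**Figure D3:**
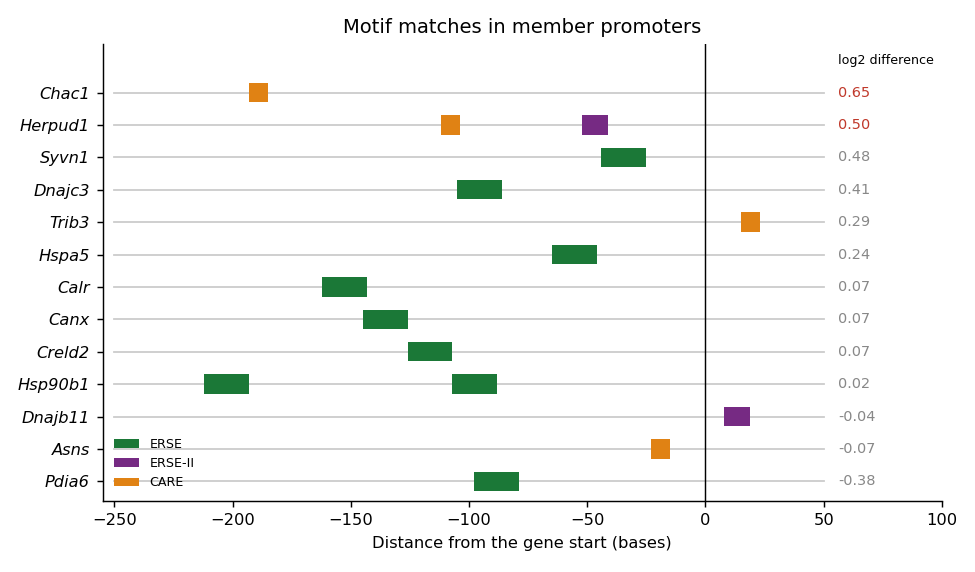
Matches to ERSE, ERSE-II and CARE (coloured bars, to scale) in the 250 bases before and 50 bases after the start of the 13 members that held one (x axis, distance from the gene start in bases), ordered by the log2 difference printed at the right. Chac1 (0.65) and Herpud1 (0.50) passed the threshold, and the genes with an ERSE spread from 0.48 (Syvn1) to −0.38 (Pdia6).

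Other genes of the same pathways were measured too. Of 39 further ER folding, degradation and secretory genes measured, 1 rose and 2 fell, with a median of 0.08 and 29 positive differences. The shares were 2.56% higher, 5.13% lower and 74.4% positive, beside 5.33%, 6.00% and 53.5% of all genes. Sil1, a nucleotide exchange factor for BiP, rose from 545 ± 15.0 to 752 ± 56.4 (0.49, SE 0.07, adjusted p = 0.038), but did not pass without quantile normalization (limma adjusted p = 0.065). The degradation genes of this list did not pass. They were Ube2j1 (−0.27), Vcp (0.00), Derl1 (0.02), Derl2 (0.08), Selenos (0.21), Ube2g2 (0.24), Edem2 (0.24), Edem3 (0.26), Os9 (0.45) and the dim Derl3 (0.66). The isomerase genes of this list differed in sign. P4hb, which encodes the archetypal disulfide isomerase, read 10590.0 and 11292 in shGFP and 12987 and 13813 in shTRPV4 (0.23, adjusted p = 0.11), and Pdia5 differed by 0.13, neither past the threshold. Txndc5, a disulfide isomerase, fell from 2461 and 2542 to 1298 and 1481 (−0.83, SE 0.08, adjusted p = 0.023), the largest fall among these ER genes. Creb3l1, an ER membrane transcription factor cut like ATF6 and known for its role in collagen secretion, fell from 252 and 330 to 150.4 and 149.9 (−0.80, SE 0.13, adjusted p = 0.045). The ATF6 paralogue gene Atf6b, outside the lists and looked up after Atf6 was seen, read 255 and 241 in shGFP and 273 and 287 in shTRPV4 (0.23, adjusted p = 0.17).

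Among 45 further genes of the integrated stress response, 3 rose and 4 fell, with a median of 0.05. These are 6.67% and 8.89% of the list, beside 5.33% and 6.00% of all genes. Slc1a4, a transporter of neutral amino acids, read 563 and 552 in shGFP and 1201 and 997 in shTRPV4 (0.99, SE 0.14, adjusted p = 0.037). Gpt2, the mitochondrial alanine aminotransferase, rose from 439 ± 7.90 to 822 ± 84.3 (0.92, adjusted p = 0.023). Ddit4 (REDD1), an inhibitor of mTORC1, rose from 2584 ± 174 to 3816 ± 39.2 (0.55, adjusted p = 0.032). These 3 separated between the groups without overlap.

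Those that fell included transcription factors that act beside ATF4. Atf3 read 79.7 and 106 in shGFP and 45.9 and 40.2 in shTRPV4 (−0.81, SE 0.13, adjusted p = 0.046), and did not pass without quantile normalization (limma adjusted p = 0.051). Cebpg, a C/EBP factor known to pair with ATF4, fell from 1050.5 ± 32.5 to 714 ± 13.3 (−0.52, adjusted p = 0.045) on its brightest probe set. Its 2 others, at 596 and 7.63 in shGFP, had positive differences (0.12 and 0.39), and the average of the 3 was −0.0028 (limma adjusted p = 0.99). Bcat1, a branched-chain aminotransferase, fell from 416 ± 35.0 to 225 ± 5.81 (−0.78, adjusted p = 0.023), with −0.19 on its other probe set, which did not pass. The arginine transporter gene Slc7a1 was called lower at readings of 11.5 ± 0.141 and 3.17 ± 0.983, below the offset of 16, which sets the size of its difference (−0.50), and the call was lost with an offset of 64. With an offset of 1 all 10 calls in these further ER and stress response lists were lost (limma adjusted p 0.052 to 0.080).

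The cytosolic heat shock genes, which answer to the factor HSF1 and unfolded proteins outside the ER, gave no call. Of 14 measured, 0 were called by limma in either direction, 0 had an unadjusted p under 0.05, and their differences ran from −0.13 to 0.18 with a median of 0.05. Over all genes 11.3% were called and 4102 of 12393 had an unadjusted p under 0.05 in limma.

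**Figure D4:**
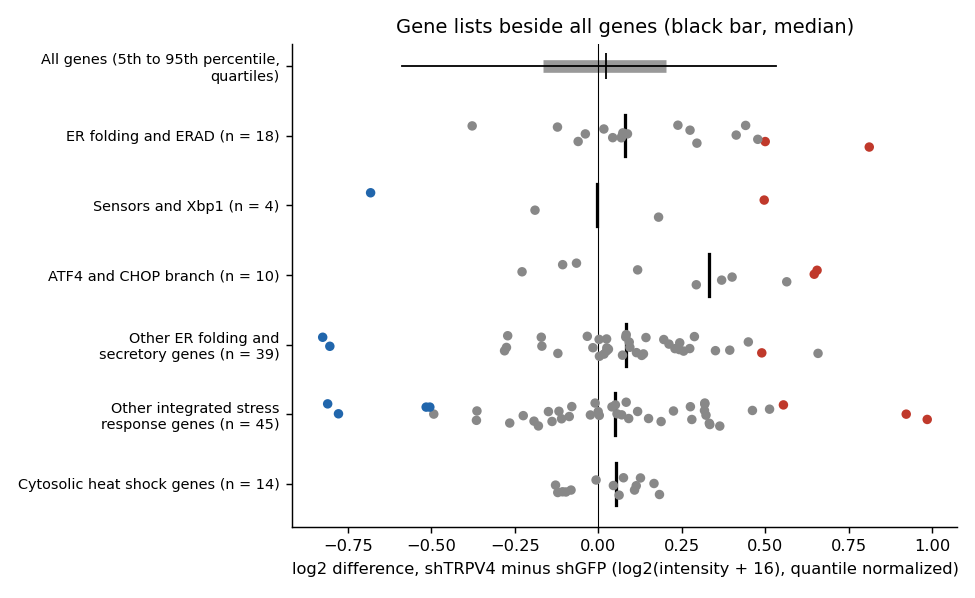
Differences (x axis, log2(intensity + 16), quantile normalized) of the 3 member groups and 3 other lists, 1 point per gene (red, called higher; blue, called lower; grey, not past the threshold) with black bars at the medians, beside all genes (line, 5th to 95th percentile; grey bar, quartiles). The medians were 0.08, 0.00 and 0.33 for the member groups and 0.02 for all genes, and the heat shock genes stayed between −0.13 and 0.18.

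Across all 70 member probe sets 9 passed upward and 1 downward, against 4.54% and 5.36% of all probe sets. The 9 belong to 8 genes: the 5 that rose, Edem1 among them with both of its probe sets, and Sesn2, Psat1 and Canx through a probe set that was not the brightest. Of the 32 genes 21 had more than 1 probe set. No member had probe sets called in opposite directions. Probe sets whose names end in _s_at or _x_at can read related transcripts, which holds for all 4 of Phgdh, for 3 of the 4 of Shmt2 and for the brightest of Asns, Atf4, Trib3, Psat1, Xbp1, Canx and Hyou1.

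**Figure D5:**
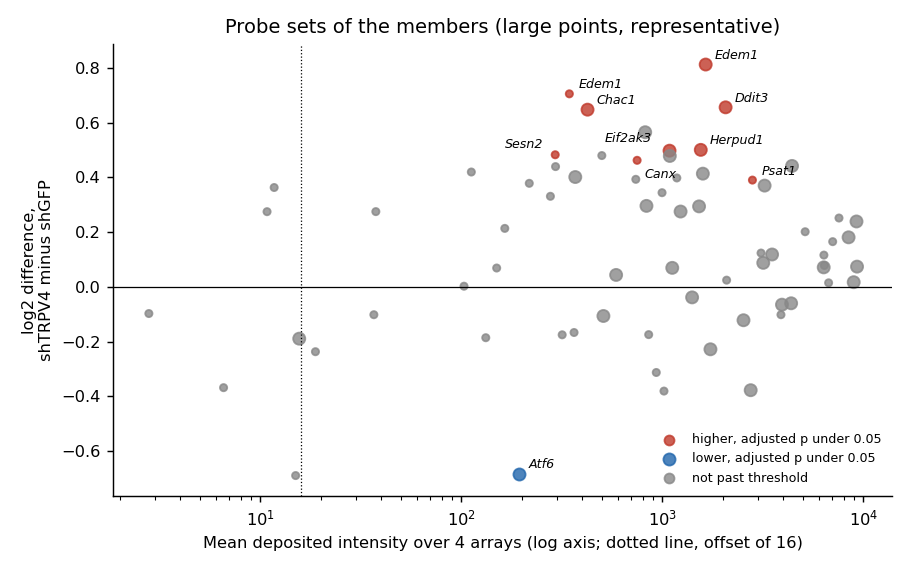
Difference (y axis, log2) against mean deposited intensity over 4 arrays (x axis, log scale) for the 70 member probe sets, with larger points for the representative of each gene. The 10 probe sets past the threshold are coloured and named, and those near or below the offset of 16 (dotted line) include all 3 of Ern1.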

How the data were processed

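Biotin-labelled cRNA was made from total RNA, per the labels' protocols. The authors deposited 1 linear intensity per probe set and array. How they summarised, background-corrected and scaled them is not given in the sources used here. Detection calls and scanner files were not analysed here. Array medians ran from 129.4 to 144.0, and 1.85% to 2.08% of values per array were exactly 1. With 2 arrays in each group, precision is limited by their number. The smallest two-sided p of an exact permutation test of 2 against 2 arrays is 0.333, so limma 3.58.1 (R 4.3.3) was used.

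Intensities were taken as log2(intensity + 16), which understates differences of dim probe sets, and quantile normalized. The fit used lmFit and eBayes over all 22626 probe sets, with 2 residual and 1.80 prior degrees of freedom, and Benjamini-Hochberg adjustment over all of them. Genes were named from the platform annotation (20380 probe sets with 1 gene symbol, 691 with several, 1555 with none). For 20351 of the probe sets with 1 symbol, the gene ID matched RefSeq (GRCm38.p6). Promoters came from RefSeq with that build, matched by symbol with Python 3.11.15.

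The members and lists were chosen with earlier results of these data known. All members are named, and of the other lists the genes past the threshold, at most 8 per list and direction. Isomerase and degradation genes of the further ER list are named beside the members of the same role. Of 94 further pathway genes and 16 heat shock genes, 84 and 14 were measured. Alternatives were other normalizations, offsets, filters on dim probe sets, averaging of probe sets, an intensity trend, leaving out each array, and the replicate number as a block.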

Additional observations from a re-analysis of the deposited data

How the results depend on the processing

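The direction of the 6 members past the threshold held under all 13 alternatives, except Eif2ak3 with probe sets averaged (−0.14). For ER folding and degradation members called higher (2 in the report), the count was 1 as deposited, 6 with median centring, 0 with an offset of 1, 6 with an offset of 64, 5 and 7 with probe sets under the 25th and 50th percentile left out, and 6 with an intensity trend. Called lower (0 in the report), it was 1 with an offset of 64, with either filter and with the trend, Pdia6 each time. Sensors called higher (1) were 0 as deposited, with an offset of 1 and with probe sets averaged, and 2 with the trend, and sensors called lower (1) were 0 with an offset of 1. ATF4 and CHOP branch genes called higher (2) were 4 with median centring, an offset of 64, the 25th percentile filter, averaging or the trend, 5 with the 50th percentile filter and 0 with an offset of 1. Over all genes, 661 higher and 744 lower became 380 higher as deposited, 1036 higher with median centring, 116 and 271 with an offset of 1, 1356 and 1221 with an offset of 64, 1298 and 1189 or 1714 and 1370 with the 25th or 50th percentile filter, and 1408 and 1236 with the trend. Counts with a percentile filter are among the genes it kept. Members called were 43.8% with the trend and 40.6% with an offset of 64, against 21.3% and 20.8% of all genes.

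With 1 array left out, each of these counts was 0 (0 to 0), in fits with 1 residual degree of freedom that take the lone array to vary like the other group. With the replicate number as a block each count was also 0, with 16 members and 4029 genes at an unadjusted p under 0.05. The correlation of same-numbered arrays' deviations was 0.12. The labels do not say whether the numbers pair arrays, so a pairing is not known.

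Some members near 0 changed sign without passing. With median centring Dnajb11 (0.031), Pdia4 (0.031) and Asns (0.041) did. With single arrays left out, Hsp90b1 ran from −0.026 to 0.061 (−0.0076 without shTRPV4 replicate 1), Dnajb11 from −0.14 to 0.068, Pdia3 from −0.31 to 0.069, Pdia4 from −0.16 to 0.033, Canx from −0.017 to 0.16 and Trpv4 from −0.093 to 0.73. Of the 414 comparisons of members with alternatives, 327 kept direction and side of the threshold, 38 lost a call, 39 gained one and 10 turned. Probe sets near the offset, such as those of Ern1, limit what can be seen.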

Other observations

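Beyond the stress response members, 10 measured genes held an ERSE in the 300 bases around their start, by the same search. Of these, 9 had a positive difference, 1 rose and 0 fell, with a median of 0.34. Over the 9887 measured genes with a promoter entry 5302 were positive, 5.45% rose and 5.93% fell, with a median of 0.02. The gene that rose was Acacb, the acetyl-CoA carboxylase tied to mitochondria, from 43.1 ± 5.78 to 77.5 ± 8.55 (0.74, SE 0.12, limma adjusted p = 0.046). Adcy3, an adenylyl cyclase, went from 211 ± 15.5 to 282 ± 27.3 (0.46, adjusted p = 0.054), and Alg12, a mannosyltransferase of the ER, from 292 ± 36.0 to 341 ± 12.5 (0.28, adjusted p = 0.15). The ER genes Ero1b (0.39) and Derl3 (0.66, at 16.1 ± 13.9 and 31.2 ± 0.544) did not pass either. Acnat2, Ptgdr2 and Zfp57 read below the offset of 16. The Alg12 site is the one shown for the member Creld2, a gene on the opposite strand, so it is counted in both groups.

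Among the 6 measured genes with an ERSE-II outside the members, 1 fell and 0 rose, beside 5.93% and 5.45% of the 9887 measured genes with a promoter entry. Krtcap2, a subunit of the oligosaccharyltransferase that glycosylates proteins in the ER, fell from 4382 ± 274 to 2687 ± 51.2 (−0.70, SE 0.07, limma adjusted p = 0.022). Rcl1 went from 921 ± 99.2 to 1300.3 ± 145 (0.51, adjusted p = 0.066). These groups were looked at after the values of the members were known, and the genes with a motif have no test as a group.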
